A study of Homo sapiens with 4 samples.

Results

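The epithelial to mesenchymal transition (EMT) genes SNAI1, SNAI2, ZEB1, ZEB2, TWIST1, TWIST2, VIM, FN1, CDH1 and CDH2 were chosen by gene symbol. Earlier results of these data were known when the choice was made. The chosen genes make up 10 of the 48162 genes in the table, and 6 of them passed the filter for testing. RNA was sequenced from MDA-MB-231 cells, an established line of human breast cancer cells grown in DMEM with serum. The cells had been given vehicle control or 10 µM MGH-CP1 for 24 h, in 2 libraries per condition. The study's methods give this dose in mM where the labels give µM. The labels do not say whether the 2 libraries of a condition came from separate cultures. The p-values thus cover only the spread between these libraries. For single genes the main test also draws on variance shared across genes. MGH-CP1 blocks the palmitoylation of TEAD, the DNA-binding partner of the coactivators YAP and TAZ, and the comparison asks which transcripts differ once TEAD is blocked.

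In EMT, epithelial cells loosen their junctions, lose E-cadherin and take on the vimentin filaments and fibronectin matrix of mesenchymal cells. Factors of the SNAI (zinc finger), ZEB (zinc finger and homeobox) and TWIST (basic helix-loop-helix) families drive the change. SNAI and ZEB proteins bind E-box DNA, CACCTG and its reverse complement CAGGTG, and repress CDH1 from there. MDA-MB-231 is commonly used as a breast line with a mesenchymal shape and little E-cadherin.

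The values are FPKM, fragments scaled to gene length and library total. Levels of different genes compare only as far as the listed lengths hold. From FPKM and gene length the number of sequenced fragments was recovered. Totals were 25455533 and 25508824 with vehicle, and 17997221 and 17577930 with MGH-CP1. Between 0.166% and 0.234% of all fragments lay on the 10 genes. Depth and the share of mitochondrial fragments (0.418% and 0.447% with vehicle, 1.53% and 1.57% with MGH-CP1) moved with the condition. With library totals taken without mitochondrial genes, every call among the 6 tested genes was the same. CYR61, a target of TEAD and YAP used to check the treatment, had 368 and 383 FPKM in the vehicle libraries and 216 and 229 FPKM after MGH-CP1. Of the markers of the line, CD44 lay between 198 and 221 FPKM, whereas the receptor genes ESR1 and PGR had at most 4 fragments in any library. ERBB2, a receptor gene listed as low or absent in the line, was at 24.7 to 28.4 FPKM. The leukocyte gene PTPRC had at most 3 fragments per library, and CD3E (leukocytes) and CDH5 (endothelium) had 0 in every library. PECAM1, also chosen as a marker of endothelium, was not listed under that symbol, so CDH5 was the only endothelial gene with values.

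Because MGH-CP1 acts on a DNA-binding factor and the SNAI and ZEB proteins on E-boxes, promoters of members were searched for the E-box CACCTG and for the TEAD motif GGAATG on both strands. RefSeq windows of 300 bases (250 before and 50 after the start, GRCh38.p14) were at hand for 6 of the 10 genes, in 13 windows, and not for SNAI1, SNAI2, TWIST1 and CDH1. The E-box was present in 2 windows, both of the 7 of ZEB1, and the TEAD motif in 1 window, also of ZEB1. Over 35116 windows of all genes 20.6% held the E-box and 14% the TEAD motif. Shown are the first 260 bases of the windows of FN1 and VIM, the most abundant members, and of the ZEB1 windows with a match, on the strand of the gene. They lie at chr2:215436059-215436318 (FN1, minus strand), chr10:17227991-17228250 (VIM, plus strand), chr10:31318167-31318426 (the first window of ZEB1, plus strand) and chr10:31318966-31319225 (the third). Capitals mark E-box matches (CACCTG or CAGGTG) and the TEAD match (CATTCC, the reverse complement of GGAATG).
FN1: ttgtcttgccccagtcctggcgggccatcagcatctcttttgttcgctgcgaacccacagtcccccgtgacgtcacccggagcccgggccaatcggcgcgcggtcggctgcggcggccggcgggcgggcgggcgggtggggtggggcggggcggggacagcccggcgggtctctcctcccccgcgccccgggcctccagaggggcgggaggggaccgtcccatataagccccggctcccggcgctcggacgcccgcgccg
VIM: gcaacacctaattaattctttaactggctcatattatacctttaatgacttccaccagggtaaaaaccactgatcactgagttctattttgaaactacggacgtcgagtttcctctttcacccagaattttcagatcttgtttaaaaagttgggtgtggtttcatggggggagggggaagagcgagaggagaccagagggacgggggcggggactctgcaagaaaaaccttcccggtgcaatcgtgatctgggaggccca
ZEB1, the first window: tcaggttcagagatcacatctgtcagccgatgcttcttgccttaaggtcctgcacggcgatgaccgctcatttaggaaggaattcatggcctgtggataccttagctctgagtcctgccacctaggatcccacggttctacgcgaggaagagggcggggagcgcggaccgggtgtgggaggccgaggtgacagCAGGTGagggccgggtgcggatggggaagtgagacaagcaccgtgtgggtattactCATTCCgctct
ZEB1, the third window: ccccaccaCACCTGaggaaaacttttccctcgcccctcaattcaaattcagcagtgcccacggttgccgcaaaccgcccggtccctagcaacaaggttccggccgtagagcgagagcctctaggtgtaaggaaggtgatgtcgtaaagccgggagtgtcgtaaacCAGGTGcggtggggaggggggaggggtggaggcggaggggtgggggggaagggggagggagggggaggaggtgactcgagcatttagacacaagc
The E-box matches of ZEB1 began at base 194 of the first window and at bases 9, 166 and 284 of the third, of which the last lies beyond the stretch shown. The TEAD match began at base 250 of the first window and so ran across the start. The windows of FN1 and VIM held neither set of letters. A match of letters is a description and was not linked to any measurement of binding.

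Of the 6 genes tested, FN1 and SNAI1 were higher after MGH-CP1, SNAI2 was lower, and ZEB1, ZEB2 and VIM did not pass the test (limma on log2(FPKM + 1), two-sided, adjusted p under 0.05 over 12080 genes). The 2 genes called higher stand against 27.1% of all genes tested, and the 1 gene called lower against 23.8%. In either direction 50.8% of all genes tested were called, so 3 of 6 is close to the background. For 5 of the 6, all but ZEB1, the 2 conditions did not overlap, which held for 77.2% of all genes tested. With no variance shared between genes, none of these 3 calls held, and over all genes only 9 were higher and 4 lower, so the calls depend on variance shared across genes. Each of the 6 had a mean of at least 1 FPKM in both conditions. In bulk RNA, fewer cells that express a gene and less RNA per cell cannot be told apart.

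**Figure D1:**
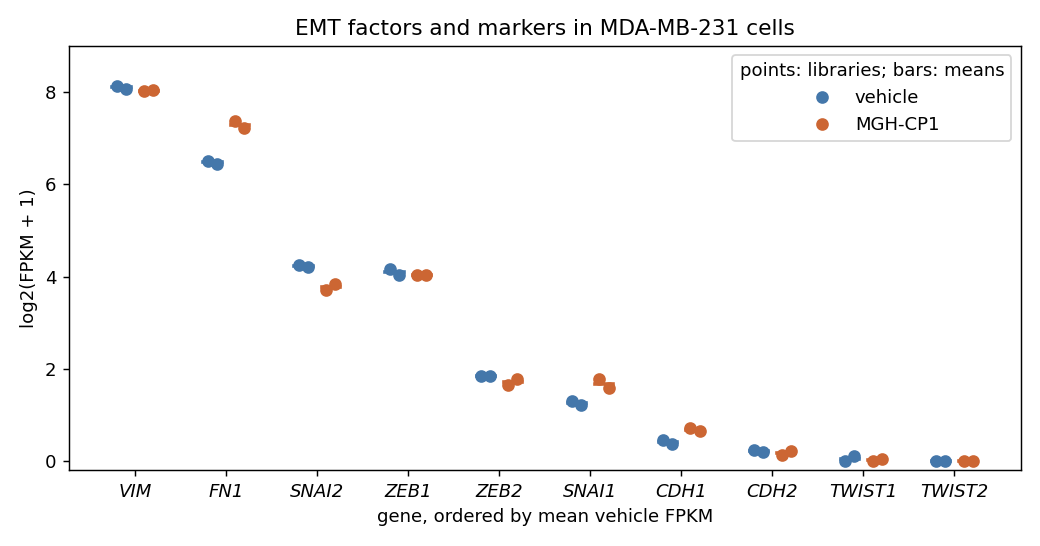
Level of each gene as log2(FPKM + 1) on the vertical axis, with genes ordered by their mean FPKM in vehicle. Points are libraries, 2 per condition, and bars are means. FN1 (88.1 to 156 FPKM) and SNAI1 (1.40 to 2.20 FPKM) lie higher with MGH-CP1 and SNAI2 (17.8 to 12.8 FPKM) lower, while VIM stays near the top in all 4 libraries.

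SNAI2 encodes Slug, the more abundant of the SNAI transcripts tested. It lies at chr8:49830249-49834299 (hg19, minus strand) and had 18.0 and 17.6 FPKM with vehicle and 12.1 and 13.4 FPKM with MGH-CP1, from 481 to 1012 fragments. Neither MGH-CP1 library reached the lower vehicle library. The mean fell from 17.8 ± 0.341 FPKM (SD, n = 2) to 12.8 ± 0.898 FPKM (SD, n = 2), a ratio of 0.717. The log2 fold change was -0.45 (standard error 0.07, 95% interval -0.61 to -0.30, adjusted p = 9.14e-04 from limma), and with each library left out in turn it ranged from -0.52 to -0.38.

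SNAI1 encodes Snail, a repressor of CDH1. It lies at chr20:48599536-48605423 (hg19, plus strand) and was at 1.47 and 1.33 FPKM with vehicle and at 2.41 and 1.99 FPKM with MGH-CP1. These levels rest on few fragments, 63 and 57 against 73 and 59. The groups did not overlap. The mean was 1.40 ± 0.101 FPKM (SD, n = 2) with vehicle and 2.20 ± 0.293 FPKM (SD, n = 2) with MGH-CP1, and the log2 fold change was 0.41 (standard error 0.12, 95% interval 0.14 to 0.69, adjusted p = 0.0197 from limma). This call depended on single libraries: the adjusted p from limma was 0.0875 without vehicle replicate 2 (log2 fold change 0.37) and 0.0994 without MGH-CP1 replicate 1 (0.32). It was also lost under quantile normalization (0.27, adjusted p = 0.0927 from limma) and without a filter on low values (adjusted p = 0.102 from limma).

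SNAI2 and SNAI1 were called in opposite directions. The FPKM ratio of SNAI2 to SNAI1 was 12.3 and 13.2 with vehicle and 5.04 and 6.73 with MGH-CP1. On the log2(FPKM + 1) scale the mean ratio differed by -0.87 between the conditions (p = 0.33 in a two-sided exact permutation test, the lowest value this design can give). SNAI2 remained the higher transcript in all 4 libraries.

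ZEB1, a repressor that recruits CtBP to E-boxes, lies at chr10:31607424-31818742 (hg19, plus strand). Its level was 17.0 and 15.5 FPKM with vehicle and 15.5 and 15.4 FPKM with MGH-CP1, from 1694 to 2715 fragments. The difference was smaller than the gap between the vehicle libraries. The log2 fold change was -0.07 with a 95% interval from -0.22 to 0.08 (adjusted p = 0.412 from limma). An antisense gene that overlaps it, ZEB1-AS1, had 34 to 47 fragments per library, and since strand-specific counting is not stated, reads from the overlap cannot be assigned with certainty.

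ZEB2, the paralog of ZEB1, lies at chr2:145145568-145282147 (hg19, minus strand) and was less abundant, at 2.60 and 2.57 FPKM with vehicle and 2.14 and 2.45 FPKM with MGH-CP1. The groups did not overlap, but MGH-CP1 replicate 2 lay close to the vehicle libraries. The log2 fold change was -0.12 with a 95% interval from -0.36 to 0.11 (adjusted p = 0.340 from limma). The FPKM ratio of ZEB1 to ZEB2 was 6.54 and 6.01 with vehicle and 7.23 and 6.29 with MGH-CP1 (difference of the log2 ratio 0.06, exact permutation test, two-sided, p = 0.667), so the groups overlapped.

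TWIST1 and TWIST2 encode basic helix-loop-helix factors of mesoderm and were hardly detected. TWIST1 (chr7:19060614-19157295, hg19, minus strand) had 0 and 3 fragments with vehicle and 0 and 1 with MGH-CP1. TWIST2 (chr2:239756673-239795893, hg19, plus strand) had 0 fragments in every library, which allows a level of up to 0.0501 FPKM over the vehicle libraries and up to 0.0717 FPKM over the MGH-CP1 libraries (3 fragments over the condition, counting error only). A difference between the conditions was not detectable for either gene at this depth.

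FN1 encodes fibronectin, the matrix protein that mesenchymal cells lay down. It lies at chr2:216225163-216300895 (hg19, minus strand) and was at 89.9 and 86.3 FPKM with vehicle and 164 and 149 FPKM with MGH-CP1. The MGH-CP1 libraries were both far above the vehicle libraries. These values rest on 20184 to 27021 fragments per library, the most of any member. The mean rose from 88.1 ± 2.55 FPKM (SD, n = 2) to 156 ± 10.5 FPKM (SD, n = 2), a ratio of 1.77. The log2 fold change was 0.82 (standard error 0.06, 95% interval 0.69 to 0.95, adjusted p = 3.69e-05 from limma) and stayed between 0.75 and 0.89 with each library left out.

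VIM, which encodes the intermediate filament protein vimentin, was the most abundant member. It lies at chr10:17270258-17279592 (hg19, plus strand) and was at 281 and 267 FPKM with vehicle and 259 and 262 FPKM with MGH-CP1. Both MGH-CP1 libraries lay just below both vehicle libraries. The log2 fold change was -0.07 with a 95% interval from -0.18 to 0.04 (adjusted p = 0.230 from limma). Under quantile normalization VIM was called lower (-0.20, adjusted p = 0.0125 from limma). The overlapping antisense gene VIM-AS1 had 104 to 163 fragments, or 0.888% of those of VIM.

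The FPKM ratio of VIM to FN1 was 3.13 and 3.10 with vehicle and 1.58 and 1.76 with MGH-CP1. The log2(FPKM + 1) ratio differed by -0.89 (p = 0.33, two-sided exact permutation test, again the lowest value). VIM and FN1 together took 0.150% and 0.157% of all fragments with vehicle and 0.206% and 0.219% with MGH-CP1.

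**Figure D2:**
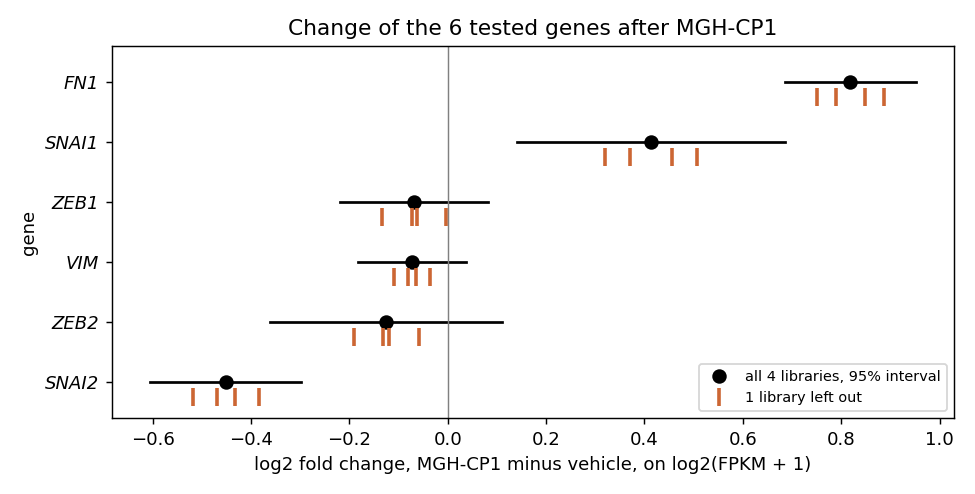
Log2 fold change, MGH-CP1 minus vehicle on log2(FPKM + 1), of the 6 tested genes. Points with lines are the limma estimates from all 4 libraries with 95% intervals, and the short marks are the estimates with 1 library left out. The interval of FN1 (0.69 to 0.95), SNAI1 (0.14 to 0.69) and SNAI2 (-0.61 to -0.30) does not include 0, and those of ZEB1, ZEB2 and VIM do.

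CDH1, which encodes E-cadherin, the adhesion protein of epithelial junctions, fell under the filter of a mean of 1 FPKM. It lies at chr16:68771128-68869445 (hg19, plus strand) and was at 0.363 and 0.289 FPKM with vehicle and 0.638 and 0.572 FPKM with MGH-CP1. The fragments were 45 and 36 against 56 and 49, so the levels with MGH-CP1 were higher although those libraries are shallower. Over the pooled libraries of a condition the ratio was 1.86 (exact 95% interval 1.38 to 2.51, for counting error only). With no filter the log2 fold change on log2(FPKM + 1) was 0.28 (adjusted p = 0.0825 from limma), which did not pass. In a limma voom fit of the recovered fragments, chosen after the data were seen and covering 14443 genes with a mean of at least 10 fragments, of which 49.4% were called in either direction, it was 0.90 (standard error 0.28, 95% interval 0.32 to 1.47, adjusted p = 0.00880 from limma). The call for CDH1 thus depended on the fit, and even with MGH-CP1 its level was 0.605 ± 0.0470 FPKM (SD, n = 2).

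CDH2, which encodes N-cadherin, the cadherin that often replaces E-cadherin in EMT, was lower still. It lies at chr18:25530930-25757410 (hg19, minus strand) and had 0.172 and 0.145 FPKM with vehicle and 0.0898 and 0.171 FPKM with MGH-CP1, from 19 and 16 against 7 and 13 fragments. The groups overlapped. The pooled ratio was 0.819 (exact 95% interval 0.448 to 1.46, for counting error only), and the voom fit gave a log2 fold change of -0.32 with a 95% interval from -1.35 to 0.71 (adjusted p = 0.629 from limma), an interval that holds both a rise and a fall.

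The FPKM ratio of CDH2 to CDH1 was 0.475 and 0.500 with vehicle and 0.141 and 0.299 with MGH-CP1. On the log2(FPKM + 1) scale it differed by -0.31 (exact permutation test, two-sided, p = 0.33). In none of the 4 libraries was CDH2 above CDH1. The log2(FPKM + 1) ratio of TWIST1 to TWIST2 was the last of the 5 pairs compared and lay between 0 and 0.10 in every library (difference -0.02, exact permutation test, two-sided, p = 1). With Benjamini-Hochberg adjustment over the 5 pairs no p could be below the smallest single value of 0.33.

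**Figure D3:**
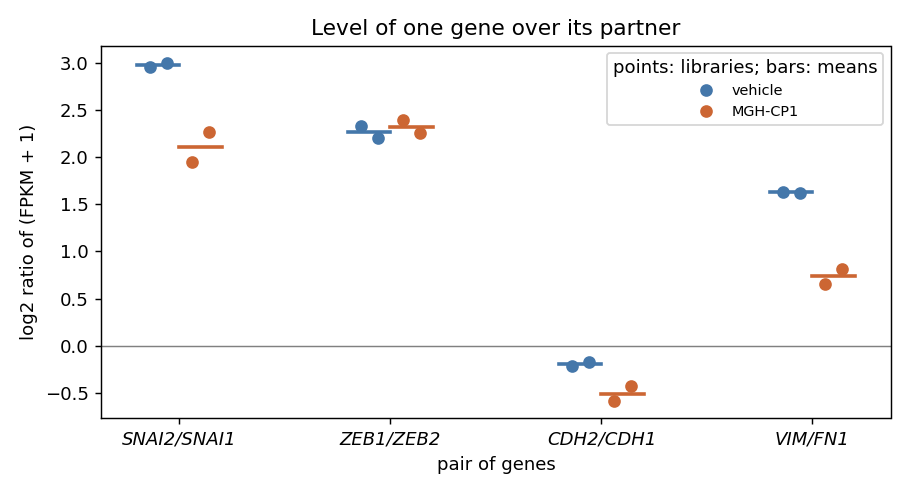
Log2 ratio of (FPKM + 1) between paired genes, on the vertical axis, for 4 pairs. Points are libraries and bars are means of 2 libraries per condition. SNAI2 over SNAI1 and VIM over FN1 lie lower with MGH-CP1 (by 0.87 and 0.89), CDH2 over CDH1 by 0.31, and ZEB1 over ZEB2 overlaps between the conditions.

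In the order of levels, VIM came first in vehicle, then FN1, SNAI2, ZEB1, ZEB2, SNAI1, CDH1, CDH2, TWIST1 and TWIST2. The ranges of neighbours did not overlap except for TWIST1 and TWIST2. With MGH-CP1, ZEB1 (15.4 ± 0.0789 FPKM, SD, n = 2) stood above SNAI2 (12.8 ± 0.898 FPKM), and the ranges of ZEB2 and SNAI1 overlapped, as did those of TWIST1 and TWIST2. By FPKM, ZEB1 was thus the highest of the 6 SNAI, ZEB and TWIST transcripts after MGH-CP1, and SNAI2 with vehicle. The vehicle values of these genes were close, 18.0 and 17.6 FPKM for SNAI2 and 17.0 and 15.5 FPKM for ZEB1.

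The other genes of the transition were taken from 6 lists, described by counts and medians beside those of all 12080 genes tested (27.1% higher, 23.8% lower, median log2 fold change 0.01). Values of listed genes are means ± SD with n = 2 per condition. Among 16 other EMT transcription factors, 8 were tested, 5 were lower, 2 were higher and 1 was not called, with a median log2 fold change of -0.23. Without vehicle replicate 2, and also with no filter on low values, 3 were lower in place of 5. Over all genes, 1844 of 24878 were lower with no filter, against 2869 of 12080 with it. ETS1, an ETS-family factor, fell from 57.2 ± 0.545 to 36.4 ± 0.932 FPKM (log2 fold change -0.64, adjusted p = 5.11e-05 from limma). The forkhead factor FOXC1 fell from 9.34 ± 0.360 to 6.81 ± 0.33 FPKM (log2 fold change -0.40, adjusted p = 0.00236 from limma). In the list 2 factors rose. Another forkhead factor, FOXQ1, rose from 24.3 ± 0.982 to 43.6 ± 1.43 FPKM (log2 fold change 0.82, adjusted p = 3.29e-05 from limma). HMGA2, an architectural chromatin protein, rose from 7.19 ± 0.0751 to 9.03 ± 0.244 FPKM (log2 fold change 0.29, adjusted p = 0.00816 from limma). HMGA2 overlaps RPSAP52, which had 48 to 78 fragments per library, or 4.29% of those of HMGA2. SOX9, named after its value was seen, was at 58.2 to 62.0 FPKM in all libraries and was the gene not called. LEF1, also named after its value was seen and under the filter, had 135 and 95 fragments with vehicle and 14 and 39 with MGH-CP1. Scaled to depth this was 1.53 and 1.07 FPKM against 0.224 and 0.638 FPKM.

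Of 17 epithelial transcription and splicing factors, 7 were tested, 4 were higher and none was lower, with a median log2 fold change of 0.44. None of the 3 uncalled genes had an unadjusted p under 0.05 from limma, and none was called lower by voom. However, median-ratio scaling gave 2 of the list as lower and quantile normalization 1. Over all genes tested these settings gave 3481 and 3221 lower, against 2869 without them. ELF3, an ETS-family factor of epithelia, rose from 1.28 ± 0.230 to 3.10 ± 0.0357 FPKM (log2 fold change 0.85, adjusted p = 5.74e-04 from limma). Another factor of that family, SPDEF, rose from 19.1 ± 0.321 to 34.0 ± 0.462 FPKM (log2 fold change 0.80, adjusted p = 3.00e-05 from limma). KLF4, a Krüppel-like factor, rose from 12.3 ± 0.0903 to 18.1 ± 0.815 FPKM (log2 fold change 0.52, adjusted p = 3.21e-04 from limma). The fourth was EHF, named after its value was seen, at 36.1 and 36.9 FPKM with vehicle and 48.8 and 50.6 FPKM with MGH-CP1. GRHL2, OVOL1 and OVOL2, factors known to oppose ZEB1 in epithelia, and the splicing factor ESRP1 had at most 5 fragments in any library. The other ESRP splicing factor of the list, ESRP2, was at 3.33 and 3.16 FPKM with vehicle and 3.18 and 2.61 FPKM with MGH-CP1. It was not called. All of these genes, ESRP2 included, were named after their values were seen.

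Epithelial junction and surface genes were split. Of 32 genes 25 were tested, 11 were higher and 7 lower, with a median log2 fold change of 0.13. CLDN7, a claudin of tight junctions, rose most, from 6.25 ± 0.871 to 22.7 ± 0.151 FPKM (log2 fold change 1.71, adjusted p = 1.50e-05 from limma). The surface mucin gene MUC1 rose from 7.29 ± 0.149 to 16.0 ± 1.86 FPKM (log2 fold change 1.03, adjusted p = 6.30e-05 from limma). JUP, which encodes plakoglobin of desmosomes and adherens junctions, rose from 22.5 ± 0.732 to 47.1 ± 5.32 FPKM (log2 fold change 1.03, adjusted p = 4.46e-05 from limma). Each of these 3 overlaps another expressed gene (ELP5, KRTCAP2 and EIF1), so their levels are uncertain where the counting could split the reads. EIF1 alone had 7051 to 10180 fragments. Among the genes that fell, the desmosomal plakophilin PKP2 went from 13.1 ± 0.400 to 8.88 ± 0.277 FPKM (log2 fold change -0.51, adjusted p = 4.54e-04 from limma). AP1M2, an epithelial subunit of a clathrin adaptor, fell from 9.92 ± 0.933 to 6.71 ± 0.361 FPKM (log2 fold change -0.50, adjusted p = 0.00162 from limma). EPCAM, an epithelial surface marker named after its value was seen, was at 12.4 and 13.9 FPKM with vehicle and 16.4 and 13.5 FPKM with MGH-CP1, with overlapping groups.

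Mesenchymal matrix and cytoskeleton genes were split as well. Of 35 genes 26 were tested, 11 were higher and 5 lower, with a median log2 fold change of 0.15. COL6A1 and COL6A2 encode chains of collagen VI. The first rose from 49.2 ± 1.89 to 99.4 ± 5.69 FPKM (log2 fold change 1.00, adjusted p = 2.04e-05 from limma) and the second from 30.1 ± 0.669 to 48.9 ± 0.644 FPKM (log2 fold change 0.68, adjusted p = 4.18e-05 from limma). S100A4, a calcium-binding protein also used as a fibroblast marker, rose from 545 ± 24.2 to 942 ± 7.42 FPKM (log2 fold change 0.79, adjusted p = 2.79e-05 from limma). S100A4 overlaps S100A3, which had 467 to 692 fragments per library, or 4.95% of those of S100A4. Receptor tyrosine kinase gene AXL fell from 283 ± 13.7 to 168 ± 26.8 FPKM (log2 fold change -0.76, adjusted p = 4.25e-04 from limma). FSTL1, which encodes a secreted glycoprotein, fell from 51.7 ± 0.814 to 32.2 ± 0.718 FPKM (log2 fold change -0.67, adjusted p = 4.46e-05 from limma). PLAU, the urokinase gene, fell from 80.6 ± 4.61 to 57.4 ± 5.71 FPKM (log2 fold change -0.49, adjusted p = 0.00102 from limma). Among the 11 higher genes TAGLN passed the filter only through its level with MGH-CP1. Under median-ratio scaling, quantile normalization and voom 8 genes of the list were lower in place of 5. Lower calls over all 12080 genes rose as well, from 2869 to 3481, 3221 and 3115 in that order.

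Of 26 co-repressors and turnover factors of SNAI and ZEB proteins 25 were tested, 10 were lower (40%, against 23.8% of all genes tested) and 3 higher, with a median log2 fold change of -0.09. EZH2, a Polycomb histone methyltransferase, fell from 30.3 ± 0.372 to 16.3 ± 0.534 FPKM (log2 fold change -0.85, adjusted p = 2.79e-05 from limma). Its partner SUZ12 fell from 36.2 ± 2.15 to 25.6 ± 0.732 FPKM (log2 fold change -0.48, adjusted p = 4.02e-04 from limma). SUV39H1, another histone methyltransferase, fell from 12.0 ± 0.321 to 7.78 ± 0.573 FPKM (log2 fold change -0.56, adjusted p = 4.79e-04 from limma). The histone deacetylase HDAC1 rose from 56.6 ± 0.723 to 74.1 ± 0.0358 FPKM (log2 fold change 0.38, adjusted p = 3.46e-04 from limma). SETDB1, a further histone methyltransferase, rose from 4.95 ± 0.124 to 6.49 ± 0.259 FPKM (log2 fold change 0.33, adjusted p = 0.00777 from limma), and overlaps CERS2, which had 2434 to 3937 fragments. LOXL2, a lysyl oxidase-like enzyme that stabilises Snail, rose from 121 ± 2.55 to 134 ± 0.545 FPKM (log2 fold change 0.14, adjusted p = 0.0316 from limma), a call lost when vehicle replicate 1 (adjusted p = 0.102 from limma), MGH-CP1 replicate 1 (0.130) or MGH-CP1 replicate 2 (0.107) was left out, and also with no filter (0.0693), with median-ratio scaling (0.139) and without the trend (0.101). LOXL2 also overlaps another expressed gene, ENTPD4, which had 1079 to 1198 fragments per library, or 11.5% of those of LOXL2. GSK3B and BTRC, which mark Snail for degradation, were not called and were named after their values were seen (log2 fold changes -0.09 and -0.02). With no filter 5 of the list were lower in place of 10. Lower calls over all genes also fell, to 1844 of 24878 from 2869 of 12080.

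Of 11 cytoplasmic partners and turnover factors of E-cadherin 10 were tested, 4 were higher and 2 lower, with a median log2 fold change of 0.08. Besides JUP, the catenin genes CTNND1 and CTNNA1 were higher. CTNND1 rose from 42.9 ± 1.03 to 54.0 ± 0.244 FPKM (log2 fold change 0.32, adjusted p = 9.71e-04 from limma). CTNNA1, the link to actin, rose from 227 ± 3.74 to 271 ± 16.8 FPKM (log2 fold change 0.25, adjusted p = 0.00594 from limma), a call lost without MGH-CP1 replicate 1 (adjusted p = 0.0551 from limma), under quantile normalization (0.0554) and with no filter (0.0706). LIMA1, an actin-binding protein of the same complex, fell from 50.5 ± 3.84 to 34.1 ± 1.63 FPKM (log2 fold change -0.55, adjusted p = 3.20e-04 from limma). CBLL1, which encodes the E-cadherin ubiquitin ligase Hakai, fell from 13.5 ± 1.24 to 9.77 ± 0.197 FPKM (log2 fold change -0.43, adjusted p = 0.00212 from limma). The fourth gene that rose was CTNNB1, which encodes beta-catenin and was named after its value was seen, at 131 and 128 FPKM with vehicle and 151 and 155 FPKM with MGH-CP1.

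**Figure D4:**
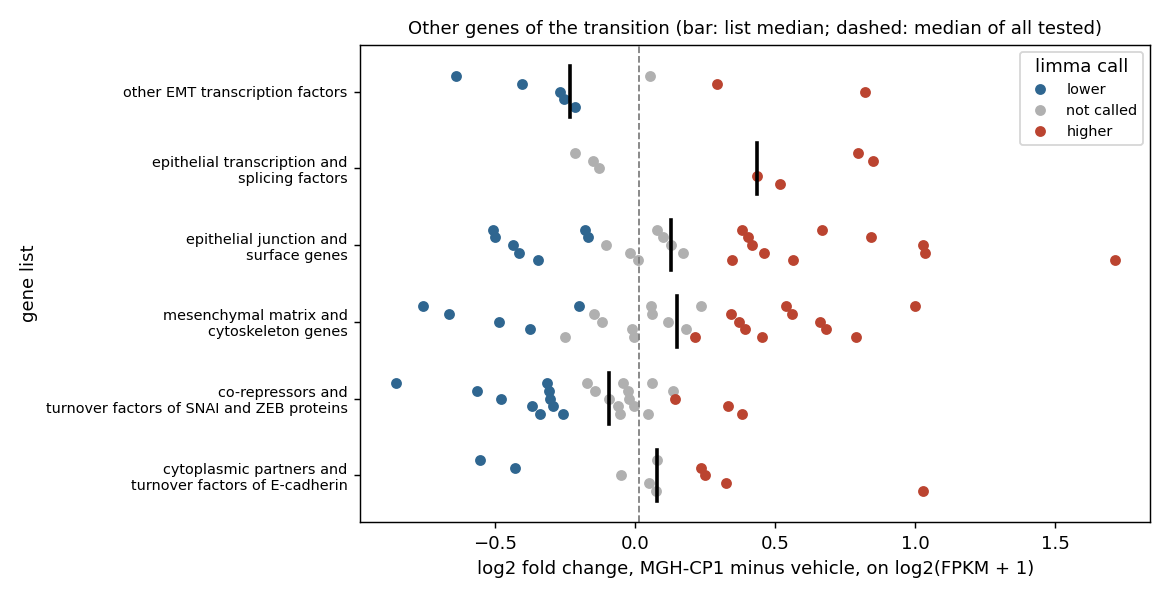
Log2 fold change, MGH-CP1 minus vehicle on log2(FPKM + 1), of each tested gene in the 6 lists. Each point is a gene coloured by its limma call, black bars are list medians and the dashed line is the median of all genes tested, 0.01. Medians run from -0.23 for the other EMT transcription factors to 0.44 for the epithelial transcription and splicing factors, and every list holds genes called in both directions except the latter, where the genes below 0 were not called.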

How the data were processed

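RNA of MDA-MB-231 cells was sequenced in 4 libraries, 2 with vehicle and 2 with MGH-CP1, as poly-T selected paired-end libraries. The authors deposited FPKM for 48162 genes with coordinates and gene length in bases. The submitters' processing notes name CASAVA 1.8, STAR and hg19, and the counting tool, annotation version and strand setting are not given in the sources used here. Each column named for DMSO was taken as the vehicle sample of the same number.

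FPKM times length gave whole fragments in 100% of values (within 0.01), without further scaling between libraries. Genes with a mean of at least 1 FPKM over the 4 libraries were tested on log2(FPKM + 1), which understates changes of low genes, with limma 3.58.1 in R 4.3.3 (two-sided, with eBayes and its trend option, where the prior had 5.97 degrees of freedom, and Benjamini-Hochberg adjustment over 12080 genes at 0.05). Exact permutation tests were used for ratios and cannot go below 0.33. The alternatives were a pseudocount of 0.1, no filter, a minimum of 5 FPKM, median-ratio scaling, quantile normalization, totals without mitochondrial genes, the replicate number as a block, no trend, no shared variance, limma voom on recovered fragments and each library left out. The intervals of fold changes from limma rest on the spread between libraries, with variance shared across genes. Those of pooled fragment ratios and the floors cover counting error only. PCR copies cannot be told from separate molecules.

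The members and lists were chosen with earlier results of these data known. The named genes are all members, CYR61 and, per list, the 3 largest rises and 3 largest falls among genes called whose groups did not overlap. Of these, 2 genes are not reported here. Any other gene is said to be named after its value was seen. Where a symbol had more than 1 entry, that with the higher mean was used. The scripts were tested on simulated data. Figures were drawn with matplotlib 3.10.9 in Python 3.11.15.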

Additional observations from a re-analysis of the deposited data

How the results depend on the processing

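No alternative turned the sign of a tested member or of a named listed gene, but some calls changed. With no variance shared between genes, 0 members and 0 genes of any list were called in either direction (SNAI1 0.41, SNAI2 -0.45 and FN1 0.82 on the log2 scale), while 4947 genes had an unadjusted p under 0.05. With no filter on low values, 1 member was higher (SNAI1 at 0.41 was not called). In that setting 3 other EMT transcription factors and 5 co-repressors and turnover factors were lower. It gave 2280 genes higher and 1844 lower of 24878, against 3273 and 2869 of 12080 with the filter. With a minimum of 5 FPKM 1 member was higher, since SNAI1 and ZEB2 were not tested. Quantile normalization left 1 member higher and 2 lower (SNAI1 0.27, VIM -0.20), with 1 epithelial factor and 8 mesenchymal genes lower. Median-ratio scaling gave 2 and 8, and voom 8 mesenchymal genes. Over all genes, quantile normalization, median-ratio scaling and voom gave 3221, 3481 and 3115 lower, against 2869 without them. Where the cause is not given here, it was not tested.

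With each library left out in turn, 1 to 2 members were higher, SNAI1 ranged from 0.32 to 0.51 and the other EMT transcription factors that were lower numbered 3 to 5. The log2 ratio difference ranged from -0.015 to 0.13 for ZEB1 over ZEB2 and from -0.074 to 0.024 for TWIST1 over TWIST2, with both signs. Deviations of replicate 1 from the mean of its condition were hardly correlated between the conditions (0.0777). This value cannot settle whether the replicate numbers pair the libraries. A fit with the replicate block changed the call of 0 members and named genes, moved no count of members or listed genes by over 1.5 times (mesenchymal genes lower were 7 in place of 5) and gave 3466 genes higher and 3052 lower, against 3273 and 2869. Genes at few fragments, SNAI1, CDH1, CDH2 and TWIST1, are limited by depth.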

Other observations

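Antisense and related transcripts of the members were chosen after their own values had been seen. VIM-AS1, the antisense gene at the start of VIM, was at 4.65 and 4.73 FPKM with vehicle and 5.06 and 4.38 FPKM with MGH-CP1, with overlapping groups (adjusted p = 0.969 from limma). ZEB1-AS1 was at 2.82 and 3.15 FPKM with vehicle and 3.51 and 3.31 FPKM with MGH-CP1, a log2 fold change of 0.15 that did not pass the test (adjusted p = 0.229 from limma). ZEB2-AS1, known to affect the splicing of ZEB2, had 0 fragments in every library. SNAI3, the least studied SNAI gene, had 9 and 19 fragments with vehicle and 7 and 9 with MGH-CP1. Scaled to depth this was 0.204 and 0.430 FPKM against 0.225 and 0.296 FPKM, with overlapping groups. Its antisense gene SNAI3-AS1 had 22 and 29 fragments against 36 and 24. In FPKM this was 0.412 and 0.542 against 0.954 and 0.651, where the groups did not overlap. Both genes were under the filter and were not tested. MIR205HG, the host transcript of a microRNA that targets ZEB1 and ZEB2, had at most 3 fragments in any library.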
